A study of Mus musculus with 16 samples.

Results

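In hybrid cells whose chromosome sets come from different mouse strains, the expression of the Castaneus (Cast) allele was compared with that of the 129 allele inside each of 7 clonal neural progenitor cell (NPC) lines. The genes compared were the 8753 of the 50600 genes listed that lie on autosomes other than chromosomes 1, 12 and 18 and reached 20 allele-specific reads in all 7 clones. From these, the genes with the same strain bias in every clone and the genes whose bias differed with library preparation were described. A read is allele-specific when it covers a base that differs between CAST/EiJ and 129S1/SvImJ, and the allelic expression ratio is the percentage of those reads that carry the Cast base, so that 50% is even expression, higher values favour Cast and lower values favour 129.

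The RNA-seq series holds 16 libraries, 11 of NPC clones and 5 of astrocytes, all of 129Sv x Cast/EiJ cells differentiated from embryonic stem cells. The clones Ch3, Ch5, Ch7 and Ch8 (male) have 2 libraries each, made after ribosomal RNA depletion, and the clones F5 (female), mG2 and mG6 (male) have 1 library each, made from poly(A)-enriched RNA. All NPC clones were grown in N2B27 medium with EGF and FGF2 and picked as single colonies, so each is 1 line from 1 cell. The 5 astrocyte libraries, used here only for comparison, were poly(A)-enriched and came from 5 other clonal NPC lines, named 129, C2, G4 (female), mC3 and mE6 (male), after treatment with BMP4. Preparation cannot be told apart from clone, because no clone was sequenced with both preparations, nor from read depth or clone origin.

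In an F1 hybrid both alleles of a gene share the same nucleus and the same regulatory proteins, so a bias that recurs in every clone towards the same strain is usually read as a difference in cis, in the DNA of the gene or its regulatory elements. It differs from random monoallelic expression, in which the favoured allele changes from clone to clone, and from genomic imprinting, in which the parent of origin decides. Mapping can also shape a ratio, since reads of processed pseudogenes and close paralogs are hard to assign. The male clones carry the 129 X chromosome, which comes from the mother, so the Cast genome came from the father, and strain and parent of origin cannot be told apart.

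The summed libraries of the Ch clones held 9992755 to 11299415 allele-specific reads per clone and the poly(A) libraries 21555315 to 32263331, which left a median of up to 467 and of 939 to 1386 allele-specific reads per gene tested. Allele-specific reads made up 18.9% to 21.1% of the reads counted on genes in the Ch libraries and 30.5% to 31.8% in the poly(A) NPC libraries. The error of assigning reads was small in both directions. In the 6 male clones, whose only X chromosome is the 129 copy, 0.185% to 0.281% of allele-specific X-linked reads were assigned to Cast, and on chromosome 12 of Ch5, Ch7 and Ch8, where the median ratio was 100%, 0.208% to 0.224% were assigned to 129. The Ch clones had a median ratio of 32.3% to 32.7% on chromosome 1, against 47.8% to 51.1% in the poly(A) clones, and mG2 one of 0.0839% on chromosome 18. These chromosomes were left out, and over the 16 autosomes kept the chromosome medians ran from 46.9% (chromosome 8 of F5) to 50.6%. The Ch clones share the ratio on chromosome 1, and whether they descend from a common altered cell was not tested. If they do, p-values over 7 clones measure partly the spread between related lines.

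Markers of the cell type were checked first. Of the 17 neural progenitor markers listed, all but Sox1 had values, and these 16 were detected in every clone. Their summed level was 6375 to 7564 RPM in the Ch clones and 7507 to 9939 in the poly(A) clones. RPM are reads scaled to the library's total on genes, as for all levels here. Sox2, a transcription factor that maintains neural progenitors, was at 29.7 to 39.5 RPM in the Ch clones and at 110 to 192 in the poly(A) clones, while Hes5, a Notch target, was at 0.0367 in 1 poly(A) clone. None of the 6 microglia and blood markers with values, of 7 listed, reached 1 RPM in any clone. Pou5f1, which defines embryonic stem cells, stayed between 0.0377 and 0.548. The 7 embryonic stem cell markers summed to 4.15 to 7.23 RPM in the Ch clones and to 8.63 to 14.03 in the poly(A) clones, of which Klf4, a transcription factor also used outside these cells, reached 8.11 and Esrrb, a nuclear receptor, 5.46. Fibroblast markers summed to 0.944 to 2.03 RPM in the Ch clones and to 15.7 to 24.2 in the poly(A) clones. In the latter Thy1, also a neuronal surface protein, was at 2.20 to 19.9. The collagen gene Col3a1 was at 0.954 to 10.2 there and Lum at 1.11 to 1.59. Astrocyte markers summed to 130 to 177 RPM in the Ch clones and to 258 to 363 in the poly(A) clones, with Gfap at 0.444 to 3.45. Neuron markers summed to 977 to 1795 RPM over the 7 clones, nearly all from Map2, and oligodendrocyte lineage markers to 45.02 to 68.6. In bulk RNA, fewer cells of a type and less RNA per cell cannot be told apart, and the part of these levels in the allelic ratios was not tested.

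Most genes were expressed almost evenly from both alleles. Between 88.2% and 90.8% of the genes tested had a ratio from 35% to 65% in any 1 clone, the range in which expression is called biallelic here. The median ratio was 49.4% in each of the Ch clones and 49.2% to 49.3% in each of the poly(A) clones, so that all 7 medians lay just below 50%. Their mean was 49.3% ± 0.0805 (SD, n = 7), and the distance from 50% had an exact permutation p of 0.0156 (two-sided, by sign flips of the 7 clones), the smallest this design allows. The Ch medians exceeded the poly(A) medians by 0.145 points on average, with an exact permutation p of 0.0571 (two-sided), which is also the smallest that 4 against 3 clones can give.

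**Figure D1:**
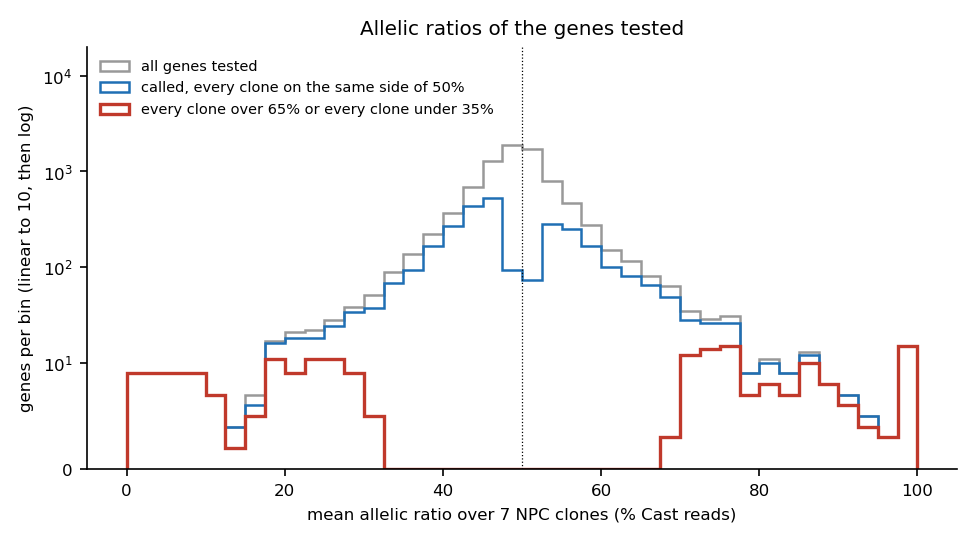
Number of genes (vertical axis, linear up to 10 and logarithmic above) by their mean allelic expression ratio over the 7 NPC clones (horizontal axis, percent Cast reads, bins of 2.5 points). The grey outline counts all 8753 genes tested, the blue outline the 3083 genes called with every clone on the same side of 50%, and the red outline the 218 genes with every clone over 65% or every clone under 35%, which fill the outer ends on both sides.

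Across the 7 clones, 3948 of the 8753 genes (45.1%) differed between the alleles by edgeR's quasi-likelihood test with clone as a block (Benjamini-Hochberg adjusted p under 0.05). Of these, 1585 were higher from Cast (18.1% of genes tested) and 2363 higher from 129 (27.0%). That split depends on the centring. The counts were compared as they stand, and the median gene had a log2 Cast/129 of -0.04. With TMM normalization of each allele column, which shifts the log2 values by a median of 0.04, the calls divided into 1953 towards Cast and 1978 towards 129. Most of these differences were small: 2810 of the 3948 were below a fold of 1.5 and 473 exceeded a fold of 2.

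In 3083 genes (35.2%) the call was joined by a ratio on the same side of 50% in every clone, 1220 towards Cast (13.9%) and 1863 towards 129 (21.3%). Another 865 genes were called with at least 1 clone on the other side. A strong bias, with every clone over 65% or every clone under 35%, was found in 218 genes (2.49%), of which 112 favoured Cast and 106 favoured 129. All 218 passed the test, which used the same counts that chose them, so this is a description. In 21 genes every clone was above 85% and in 27 every clone was below 15%, the limits for monoallelic expression. The highest and the lowest clone of a strongly biased gene lay a median of 12.2 points apart, against 9.02 points over all genes tested. In 86 of the 218 genes they lay less than 10 points apart, and in 24 more than 25 points. The limits at 35% and 65% cut through a continuous range. Tspan17, whose lowest clone was at 65.01%, and Usp20, whose highest was at 34.95%, fell just inside, while Flnc, whose lowest clone was at 64.98% with the highest at 94.5%, and Mllt11, with 35.06% in its highest clone, fell just outside.

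Pseudogenes were frequent at the ends of the range. Of the 218 strongly biased genes, 42 were pseudogenes, although 68 of the 8753 genes tested were, and 166 were among the 8561 protein-coding genes. The most extreme genes that reached 100 allele-specific reads in every clone were mostly pseudogenes, several of them named after a ribosomal protein gene. Towards 129 these were Rpl7a-ps3 (0 to 1.09% in the 7 clones), Gm5564, Gm13436, Tpt1-ps3, Hspd1-ps3 and Rpsa-ps2, with the long noncoding RNA A730017L22Rik (0 to 0.633%) and the protein-coding gene Lpo. Towards Cast they were Gm11793, Gm10221, Gm10156, Rpsa-ps4, Rpl39-ps (98.5% to 99.5%) and Gm13337, followed by the protein-coding Creb3 and Bmp7. Gm11793 had no 129 read among 2981 allele-specific reads, which allows a 129 share of up to 0.101%. Reads of pseudogenes can be exchanged with their parent genes and with copies elsewhere, so their ratios are uncertain as a measure of transcription from that place. Over the 23 pseudogenes named -ps that were tested, 9 were called towards Cast and 10 towards 129 (82.6%, against 45.1% of all genes). The median size of their log2 ratio was 3.23, against 0.19 over all genes.

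Among protein-coding genes that reached the same 100 reads in every clone, the most one-sided expression towards 129 was that of Lpo, which encodes the secreted enzyme lactoperoxidase. Its ratio was 0% in Ch3, F5, mG2 and mG6, 0.132% in Ch5, 0.441% in Ch7 and 0.943% in Ch8, on 164 to 755 reads. All 7 clones thus read the 129 allele almost alone. Nfatc3 (chromosome 8, 106058818 to 106130537 of GRCm38.p6), a calcium-regulated transcription factor, had ratios of 6.08%, 2.78%, 1.42% and 1.19% in the Ch clones and of 0.680%, 5.46% and 0.929% in F5, mG2 and mG6 (log2 Cast/129 -5.35, edgeR adjusted p = 1.4e-05), and the preparations overlapped. Ubb, a polyubiquitin gene, was at 2.49% to 3.48% in the Ch clones and 4.19% to 4.89% in the poly(A) clones (mean 3.56% ± 0.941 SD, n = 7, on 31299 reads). Its groups did not overlap, although both sat near 0%.

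Mt1, a metal-binding metallothionein, spread more. It was at 0.0487% in F5, at 0.0869% in mG2 and at 17.1% in Ch5, and every clone stayed below 35%. Pon2, a lactonase, ran from 2.43% in mG6 to 9.15% in Ch5. Abca8b, a lipid transporter of the ABC family, had ratios from 0.647% to 15.9%, and Cpne8, a calcium-dependent membrane-binding protein, had ratios from 2.003% to 6.68%. Tbx18, a T-box transcription factor, lay between 2.03% and 16.1%. Of these 5 genes only Pon2 separated the preparations, with all 4 Ch clones above all 3 poly(A) clones.

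Towards Cast, the most biased protein-coding gene above this limit was Creb3 (chromosome 4, 43562658 to 43567061), a membrane-bound transcription factor of the CREB family. Its ratios were 99.5%, 95.8%, 91.1% and 91.1% in Ch3, Ch5, Ch7 and Ch8, and 95.6%, 96.3% and 96.8% in the poly(A) clones (mean 95.2% ± 3.05 SD, n = 7, log2 Cast/129 4.39, edgeR adjusted p = 1.3e-05). The poly(A) values lay within the range of the Ch values. Bmp7, a secreted bone morphogenetic protein, was at 80.8% to 94.0% in the Ch clones and at 96.3% to 97.5% in the poly(A) clones. Grm4, a metabotropic glutamate receptor, had its lowest ratio in mG6, at 74.2%, and its highest in Ch7, at 96.7%.

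Cd36, a scavenger receptor for fatty acids, and Lynx1, a modulator of nicotinic receptors, were more biased in the Ch clones. Cd36 had 91.5% to 95.8% there and 80.4% to 87.5% in the poly(A) clones, and Lynx1 had 89.9% to 93.5% and 81.4% to 86.9%. Timm23, a channel subunit for protein import into mitochondria, was tight at 83.0% to 91.3%, and so was Dnajb5, a heat shock co-chaperone, at 81.5% to 92.9%. Cpt1c, a brain member of the carnitine palmitoyltransferase family, was the exception among these 8 genes. Its clones separated into Ch5, Ch8, F5 and mG6 at 95.7% to 98.3% and Ch3, Ch7 and mG2 at 57.9% to 70.9%, so it was on the Cast side in every clone without being strongly biased in all of them (mean 83.0% ± 17.9 SD, n = 7).

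The deepest of the strongly biased genes had many reads per clone, but not all had a narrow range across clones. Depth does not show whether reads were shared with pseudogenes or close paralogs, which was not tested. Rps15, a protein of the small ribosomal subunit, had 10.0% to 12.9% over the 7 clones on 52821 reads (mean 11.5% ± 1.10 SD, n = 7). Tuba1a, an alpha-tubulin of the neural lineage, had 28.3% to 33.9%, and Akap12, a scaffold of protein kinase A, 9.92% to 23.5%. Ftl1, the light chain of the iron store ferritin, was on the 129 side throughout but at 16.0% to 19.6% in the Ch clones and at 3.88% to 5.47% in the poly(A) clones. Towards Cast, the chaperone Hspa8 had 65.7% to 74.0%, Picalm, a clathrin assembly protein, 65.6% to 69.7%, and Matn2, a matrix protein, 72.6% to 88.3%. Picalm varied by an SD of 1.43 points and Hspa8 by 3.54 points (n = 7). Matn2 varied by 5.96 points and Ftl1 by 6.74 points, against a median SD of 4.54 points over the strongly biased genes. The gene with the most reads in this set was Peg10, an imprinted gene that is described below.

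**Figure D2:**
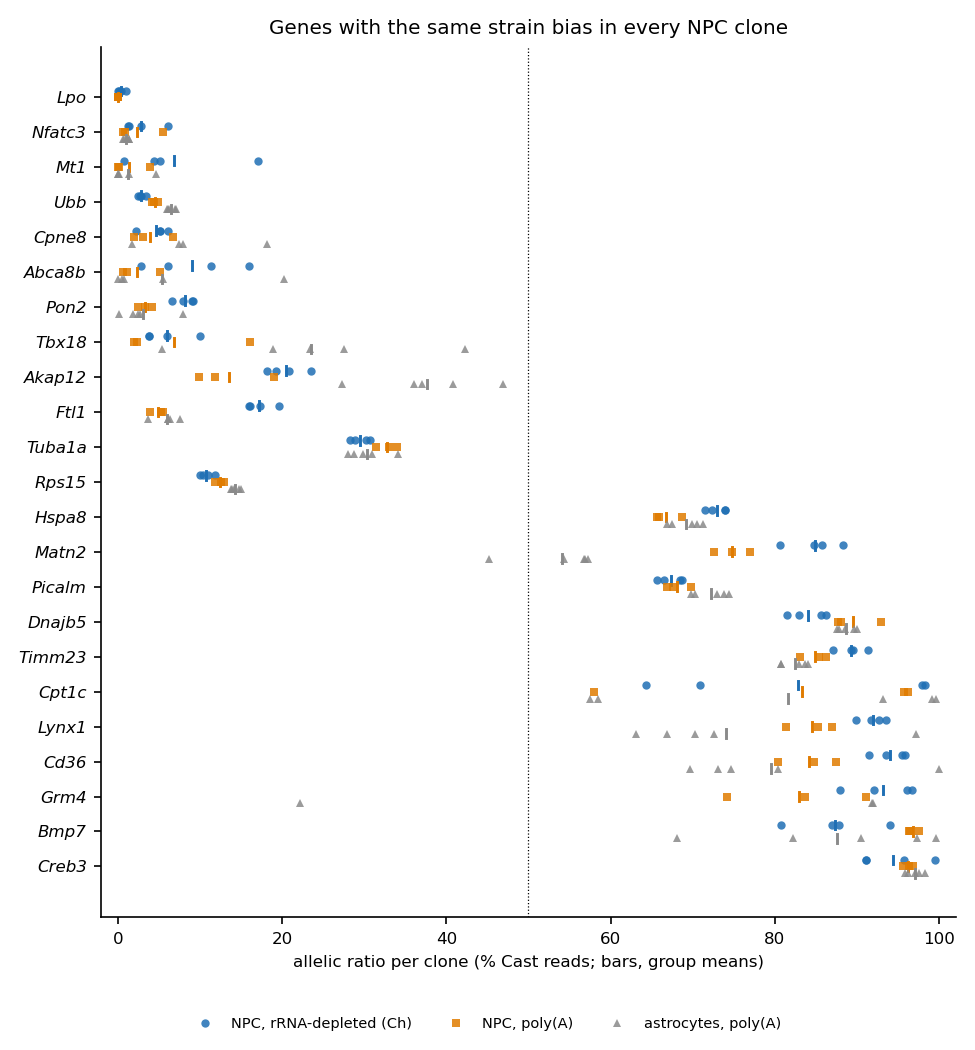
Allelic expression ratio of each clone (horizontal axis, percent Cast reads) for the protein-coding genes named for a bias shared by the NPC clones, with blue circles for the 4 rRNA-depleted NPC clones, orange squares for the 3 poly(A) NPC clones, grey triangles for astrocyte clones with at least 20 allele-specific reads, and bars for the means of complete groups. The NPC points of each gene lie on 1 side of 50%, while in astrocytes Matn2 sits between 45.2% and 57.2% and 1 library of Grm4 is at 22.2%.

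Neighbouring genes sometimes shared the direction. Strongly biased genes less than 500000 bases apart and with the same direction formed 11 runs, of which 9 were pairs. The longest lay on chromosome 4 from 42949867 to 44032846 and held Dnajb5, Rusc2, Creb3 and Clta, all towards Cast. Rusc2, linked to vesicle traffic, had 73.6% to 83.1%, and Clta, the clathrin light chain, had 69.5% to 81.5%. Of the 21 genes tested in that interval, 12 were called towards Cast and 3 towards 129, among them Vcp, a segregase ATPase, with 42.5% to 45.5%. The other run of 3 lay on chromosome 8 from 105413598 to 106130537 with Lrrc36, Gfod2 and Nfatc3 towards 129. There, 6 of 19 genes tested were called towards 129 and 2 towards Cast, and Ctcf, which lies between them, had 46.3% to 52.6%. Over all genes tested, 18.1% were called towards Cast and 27% towards 129. The strongly biased genes set the ends of both intervals and are included in these counts, which are a description.

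Genes that define NPCs were called at a share near that of all genes. Of the 14 neural progenitor markers tested, 2 were called towards Cast and 5 towards 129 (50%, against 45.1% of all genes), none was strongly biased and none was called for preparation. Nes, the intermediate filament nestin, was at 42.9% to 48.0%, Vim, vimentin, at 45.4% to 48.6% and the glutamate transporter gene Slc1a3 at 52.5% to 55.0%. Sox2 (47.8% to 53.3%) and Notch1 (47.2% to 54.1%) straddled 50% and were not called. Clones differed more at Cd44, a hyaluronan receptor, with 15.8% in Ch5 and 38.5% to 59.0% in the others, and at Prom1, a membrane glycoprotein, with 31.8% to 74.8%, and neither was called.

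Some markers of other lineages were more biased. Aldh1l1, a folate enzyme used as an astrocyte marker, was at 75.5% to 89.4%, and Tubb3, a neuronal tubulin with 507 reads in all, at 72.4% to 91.9%. Slc1a2, a glial glutamate transporter, was called towards 129 with 31.3% to 47.0%, and Cnp, an oligodendrocyte enzyme, with 29.6% to 39.4%. Of the 3 astrocyte markers tested 1 was called in each direction, and the only neuron marker and the only oligodendrocyte lineage marker tested were called. Of all genes tested, 45.1% were called, and these lists had 6, 9 and 7 members, so the counts rest on few genes. No embryonic stem cell, microglia and blood or fibroblast marker reached the minimum in all 7 clones.

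Immune genes held several one-sided members. H2-K1, a classical class I histocompatibility gene, was at 2.99% to 17.4%, on 755 reads in all and 67 in its shallowest clone. The part of mapping in its ratio was not tested. B2m, its shared light chain, was at 51.1% to 55.8%. Of the 8 class I and antigen-processing genes tested, 4 were called towards Cast and 1 towards 129 (62.5%, against 45.1% of all genes). Among 9 interferon-stimulated genes, 3 were called in each direction (66.7%), with a median log2 Cast/129 of 0.14. Gbp9, a guanylate-binding protein, was at 75.1% to 89.9% and Mx2, annotated as a pseudogene, at 88.7% to 98.5%. Ifit2, an interferon-induced RNA-binding protein, was at 0% in Ch3, Ch5 and Ch7, at 0.549% to 1.49% in Ch8, mG2 and mG6 and at 15.3% in F5. Stat2, which carries the interferon signal to the nucleus, was at 32.4% to 38.9%.

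Metabolic and housekeeping lists had few strongly biased members, while their share of calls lay on either side of the 45.1% of all genes. Of 14 glycolysis genes, 6 were called towards Cast and 5 towards 129 (78.6%), with a median log2 Cast/129 of 0.06. Eno1, enolase, was at 33.6% to 38.8%, and Pkm, pyruvate kinase, was at 54.2% to 59.98%. Of 71 nuclear genes of oxidative phosphorylation, 13 were called towards Cast and 28 towards 129 (57.7%), none strongly biased. Ndufv3, a subunit of respiratory complex I, was at 57.6% to 61.7%. Of 31 proteasome subunits, 6 and 12 were called in these directions (58.1%), of 66 mitochondrial ribosomal protein genes 10 and 16 (39.4%), and of 29 genes of glutathione and aldehyde detoxification 8 and 6 (48.3%).

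The next lists were called at shares near the 45.1% of all genes. Of 16 cholesterol synthesis genes 1 was called towards Cast and 6 towards 129 (43.8%), with Pmvk, phosphomevalonate kinase, at 23.2% to 30.5%. Of 14 collagen genes 2 and 5 were called (50%). Col4a1 and Col4a2, adjacent genes for the chains of basement membrane collagen, were both on the 129 side, at 19.7% to 30.8% and at 28.5% to 35.5%, and Col6a1 was on the Cast side at 70% to 82.1%. The 258 zinc finger genes named Zfp had 43 and 57 calls (38.8%), with Zfp52 at 83.3% to 96.8%. Of 6 small nucleolar RNA host genes 3 were called (50%), all towards 129, with Snhg15 at 20.7% to 27.9%.

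Imprinted genes, expressed by parent of origin, varied between clones. Of 13 paternally expressed genes 6 were called (46.2%, against 45.1% of all genes), all towards Cast, the paternal allele, and of 4 maternally expressed genes 1 was called towards Cast and 2 towards 129. Peg10, a retrotransposon-derived gene, had 99.8% to 99.9% in Ch3, mG2 and mG6 and 72.7% to 82.3% in Ch5, Ch7, Ch8 and F5. Mest, a paternally expressed hydrolase gene, had at least 99.8% in 6 clones and 55.2% in F5. Peg3, a zinc finger gene, was at 99.8% or more in 5 clones, at 49.0% in F5 and at 52.0% in mG6. Snrpn was at 91.7% to 100% apart from 52.8% in F5, and the noncoding RNA Airn at 99.8% to 100% apart from 75.7% in F5 and 68.3% in mG6. Igf2r, a maternally expressed receptor for growth factor clearance, was at 4.81% to 8.83% in the Ch clones and at 7.37% in mG2, but at 63.4% in F5 and 57.9% in mG6. Of the other paternally expressed genes, Usp29 was at 77.8% to 100% in single Ch libraries, on 18 to 38 reads each. Several others departed from Cast expression in Ch clones too. Sgce, a sarcoglycan gene, was at 55.0% to 62.8% in Ch5, Ch7, Ch8 and F5 and at 99.3% or more in Ch3, mG2 and mG6. Peg12 was at 52.5% to 55.5% in every clone but mG2, and Mkrn3 at 34.2% to 52.7% in all 7. Ndn, a MAGE family gene, was at 4.35% in Ch5, on few reads, and at 100% in mG2 and mG6. Plagl1, a zinc finger gene, was at 0% to 6.12% in Ch5, Ch7 and Ch8, the maternal side, and at 100% in Ch3.

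Of the 13 genes that the study selected, 5 reached the minimum, and 3 were called (60%, against 45.1% of all genes). Eya2, a transcriptional coactivator with phosphatase activity, was strongly biased towards 129, at 11.2% to 30.9%. In many more NPC clones, the study found subpopulations with different Eya2 ratios and allelic choices that varied between differentiation experiments. The shared side of Eya2 is thus a description of these clones. App, the amyloid precursor, was called with 48.8% to 56.6% on 81843 reads. Eya3 (42.2% to 51.8%) and Bag3, a co-chaperone, were not called. Bag3 had 48.7% to 56.2% in 5 clones, 75.5% in Ch5 and 99.7% in Ch8. The list is the study's own, most of it chosen for random monoallelic expression in earlier NPC clones, with App taken from another cell type and Eya3 as a biallelic gene.

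The astrocyte libraries, which the choice of genes did not use, mostly kept the direction. Of the 218 strongly biased genes, 177 had at least 20 allele-specific reads in all 5 astrocyte clones. In 155 of these (87.6%) every astrocyte clone was on the side of the NPC clones, in 108 (61.0%) every astrocyte clone was also beyond 35% or 65%, and 142 were called in the same direction by edgeR's quasi-likelihood test over the 5 astrocyte clones, where 35.6% of the genes tested in both were called. Over all 2950 genes with a call and 1 side in the NPC clones and enough reads in astrocytes, 1833 (62.1%) had all 5 astrocyte clones on that side. All 5 lay on 1 side, whichever it was, in 47.9% of the 8355 genes with enough reads. The same 2950 genes held 1568 astrocyte calls in the same direction (53.2%) and 51 in the opposite one.

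Rps15 was at 13.8% to 14.96% in astrocytes, Nfatc3 at 0.648% to 1.36%, Creb3 at 95.9% to 98.2% and Tuba1a at 28.0% to 34.1%. The astrocyte values of Nfatc3 and Creb3 lay close to or within the NPC range. For Rps15 all 5 exceeded the 7 NPC values. Retsat and Hexa went to the opposite side in at least 1 astrocyte clone, with ranges of 13.7% to 95.4% and of 2.22% to 99.3%.

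In poly(A) libraries alone, the 3 NPC clones and the 5 astrocyte clones differed in their allelic ratio (edgeR's quasi-likelihood test of the allele by cell type term, adjusted p under 0.05) at 174 of 8355 genes (2.08%). This comparison was added after the data were seen, and leaving out any 1 of the 3 NPC clones left 24 to 28 calls, and leaving out the astrocyte clones C2, mC3 or mE6 left 69, 83 or 59. Of the strongly biased genes, 14 of the 177 tested were called. The NPC ratios chose these genes, so that count is a description. Matn2 was at 72.6% to 77.0% in the poly(A) NPC clones and at 45.2% to 57.2% in astrocytes (adjusted p = 0.018). Olfm2, a secreted olfactomedin, was at 24.3% to 25.1% and at 41.3% to 45.2% (adjusted p = 0.00077). Slc1a5, a neutral amino acid transporter, and Cebpd, a transcription factor, were also nearer to 50% in astrocytes, at 50% to 70.5% and 54.5% to 68.1%. Over all 7 NPC clones, with the Ch clones included, their ranges were 81.2% to 88.3% and 77.1% to 90.7%. Ulk4, a kinase-like protein, lay on opposite sides, at 66.4% to 78.4% in these 7 clones and 24.3% to 43.8% in astrocytes, on few reads.

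The bias differed between the rRNA-depleted Ch clones and the poly(A) clones at 451 of the 8753 genes (5.15%). The test was edgeR's quasi-likelihood test of the allele by preparation term, at an adjusted p under 0.05. Preparation, clone origin and read depth change together in this comparison, so a gene called for preparation is one that differs between these groups of clones. The ratio was higher in the rRNA-depleted Ch clones at 269 genes (3.07%) and lower at 182 (2.08%), against 238 and 208 with TMM normalization. In all 451 genes the ratios of the 4 Ch clones did not overlap those of the 3 poly(A) clones, a property that 1755 of the genes tested had (20.1%). Leaving out 1 clone in turn left 243 (without mG6) to 397 (without F5) genes called. The means of a called gene differed by a median of 9.04 points, against 2.499 points over all genes tested, by less than 10 points in 260 genes and by more than 20 points in 49. In 203 of the 451 genes the means lay on opposite sides of 50%. The Ch mean was nearer to 50% in 195 of them (43.2%, against 49.1% of all genes tested).

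As a description over the 7124 genes that reached 100 allele-specific reads in every clone, Pearson's r of the ratios across genes was 0.731 to 0.819 between pairs of Ch clones, 0.653 to 0.766 between poly(A) clones and 0.552 to 0.688 between a Ch and a poly(A) clone. These values share the library, the depth and the aligned reads of a clone, and genes are not independent replicates.

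**Figure D3:**
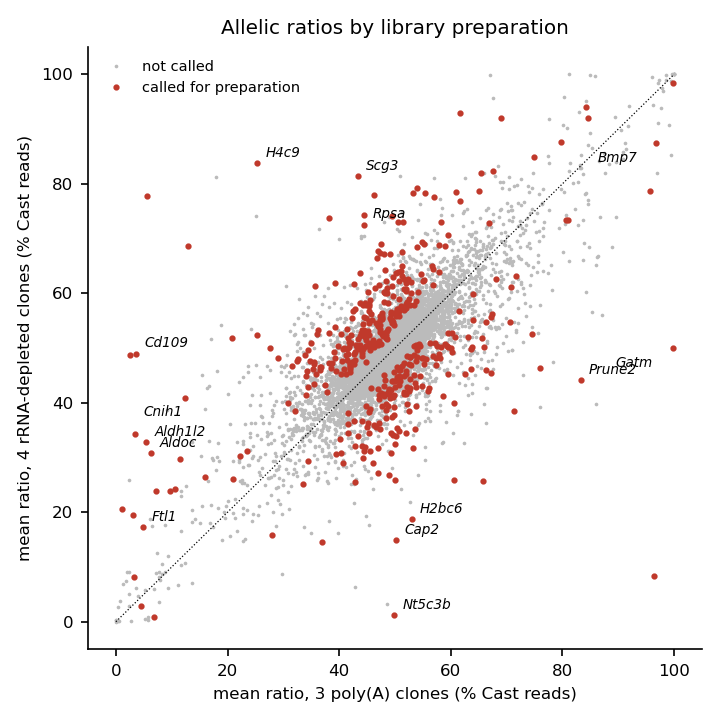
Mean allelic expression ratio in the 4 rRNA-depleted clones (vertical axis, percent Cast reads) against the mean in the 3 poly(A) clones (horizontal axis) for each gene tested, with the 451 genes called for preparation in red, the others in grey and equality as a dotted line. The red points lie on both sides of the line, with H4c9 and Scg3 far above it and Nt5c3b and Gatm far below.

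Gatm, which makes the creatine precursor guanidinoacetate (chromosome 2, 122594473 to 122611277), had ratios of 62.3%, 44.0%, 49.5% and 44.2% in Ch3, Ch5, Ch7 and Ch8, of 99.7% in F5 and of 100% in mG2 and mG6. Expression was biallelic in the Ch clones and from Cast alone in the poly(A) clones (difference of log2 ratios -9.50, edgeR adjusted p = 0.00013). Its 8 Ch libraries, taken singly, ran from 37.5% to 65.3%. The 3 astrocyte clones with enough reads had 89.8% to 99.9%. Nt5c3b, a nucleotidase (chromosome 11, 100422317 to 100441808), had 0.274% to 2.01% in the Ch clones and 48.4% to 50.8% in the poly(A) clones (difference -6.38, adjusted p = 5.9e-05). The poly(A) clones were even, and the Ch clones read the 129 allele almost alone. In astrocytes its ratio ran from 2.86% to 49.4%.

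Prune2, a BNIP-domain protein of neural tissue, was at 41.4% to 46.0% in the Ch clones and at 75.4% to 94.0% in the poly(A) clones. All 5 astrocyte clones, at 69.1% to 83.6%, were nearer to the poly(A) clones. Cap2, an actin regulator, was at 8.44% to 25.3% and at 42.9% to 58.3%, but at 0% to 27.0% in the 4 astrocyte clones with enough reads. The remaining genes of this direction named by size were the pseudogenes Rpsa-ps2 and Rpsa-ps4, whose ratios stayed near the ends, at 0.643% to 1.28% against 6.44% to 7.20% and at 98.3% to 99.0% against 99.7% to 100%. Another pseudogene, Rps16-ps2, singled out after its values were seen, changed sides entirely, at 6.02% to 10.9% in the Ch clones and at 94.3% to 97.6% in the poly(A) clones, where it had 35 to 83 reads.

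In the other direction, Cnih1, a cargo receptor of the secretory pathway (chromosome 14, 46775567 to 46788357), had 30.9% to 37.0% in the Ch clones and 2.29% to 4.90% in the poly(A) clones (difference of log2 ratios 3.88, edgeR adjusted p = 0.00013). All 5 astrocyte clones were at 2.54% to 6.11%, with the poly(A) NPC clones. Both groups favoured 129, and the poly(A) libraries did so more. Scg3, a granin of secretory granules, was at 77.1% to 84.2% and at 39.4% to 49.9%, with 16.3% to 42.0% in astrocytes. Cd109, a membrane-anchored protein of the alpha-2-macroglobulin family, was at 40.2% to 54.9% in the Ch clones and at 0.287%, 0.402% and 10.4% in F5, mG2 and mG6. Its astrocyte clones ranged from 0.755% to 86.0%, so that they sided with neither group.

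Aldoc, an aldolase of astroglia with 69191 reads, had 24.6% to 36.1% in the Ch clones and 2.51% to 10.96% in the poly(A) clones, and its 5 astrocyte clones spread from 12.5% to 40.4%. Aldh1l2, the mitochondrial relative of Aldh1l1, had 13.4% to 42.6% and 3.27% to 7.76%, with 13.9% to 30.4% in astrocytes. The pseudogenes Gm16409 (76.1% to 79.6% against 5.08% to 6.34%), Gm12091 (45.4% to 52.1% against 0.0275% to 3.94%) and Gm6767 (65.3% to 74.1% against 5% to 24.4%) completed the largest differences of this direction together with the histone gene H4c9.

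**Figure D4:**
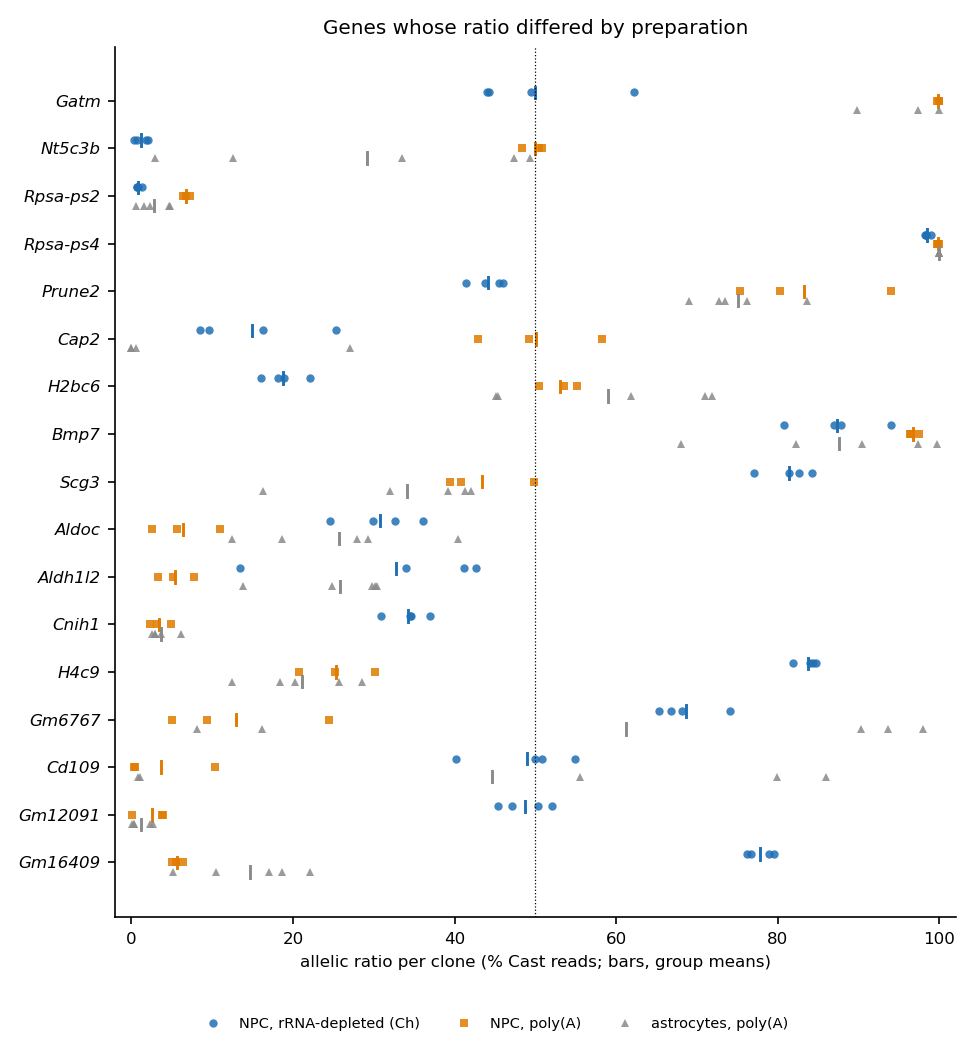
Allelic expression ratio of each clone (horizontal axis, percent Cast reads) for the genes with the largest differences by preparation, with the same symbols as the plot of shared biases. The blue and orange points do not overlap in any of the 17 genes, and the grey astrocyte points lie with the orange ones for Prune2, Cnih1 and H4c9 and spread widely for Cd109 and Gm6767.

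Replication-dependent histone genes, whose transcripts end in a stem-loop in place of a poly(A) tail, were called most often by share among the lists. Of 5 tested, 4 were called for preparation (80%, against 5.15% of all genes), 2 in each direction. H4c9 (chromosome 13, 22040960 to 22041362) had 81.9%, 84.4%, 84.0% and 84.7% in the Ch clones and 25.2%, 30.1% and 20.7% in F5, mG2 and mG6 (difference of log2 ratios 3.91, edgeR adjusted p = 1.3e-05). The favoured allele was thus Cast in every Ch clone and 129 in every poly(A) clone, and the 5 astrocyte clones had 12.5% to 28.6%. Its level moved too, with a mean of 136 RPM in the Ch clones and 2.21 in the poly(A) clones. H2bc6 was at 16.1% to 22.1% and at 50.4% to 55.1%, with 41.0 and 2.75 RPM. H2bc4 was at 89.2% to 93.5% and at 64.1% to 72.3%, and H1f2 at 59.3% to 62.9% and at 69.5% to 71.6%. Histone genes are close paralogs, and the part of reads shared between them, or of the change in level, in these ratios was not tested.

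Cytoplasmic ribosomal protein genes gave the most calls among the lists. Of 67 tested, 24 (35.8%) were called for preparation, 11 with a higher and 13 with a lower ratio in the Ch clones, against 5.15% of all genes. The median size of the difference of log2 ratios was 0.23, against 0.15 over all genes, and the signed median was -0.01, so that the group did not move to 1 side. Rpsa, of the small subunit (chromosome 9, 120127766 to 120132369), had 71.3% to 74.2% in the Ch clones and 43.8% to 45.6% in the poly(A) clones (difference 1.72, edgeR adjusted p = 1.3e-05), which crossed 50%. In astrocytes it had 40.2% to 56.8%.

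Rpl11, of the large subunit, went the other way, at 29.5% to 32.9% in the Ch clones and at 48.7% to 49.9% in the poly(A) clones. Rplp1, a stalk protein with 157816 reads, was at 34.5% to 36.0% and at 45.8% to 48.3%. Rps24 was at 61.1% to 62.9% and at 51.5% to 52.6%, and Rpl15 at 50.8% to 55.2% and at 35.05% to 37.0%. The SD within either preparation was at most 1.87 points for Rpl15, while its means differed by more than 10 points. For strain, 20 of the 67 genes were called towards Cast and 26 towards 129 (68.7%, against 45.1% of all genes), of which 20 and 25 kept 1 side in every clone. Rps15, Rpl35a (24.6% to 34.3%) and Rps6 (70.4% to 81.3%) were strongly biased. These genes have many processed pseudogenes, and the part of shared reads was not tested.

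**Figure D5:**
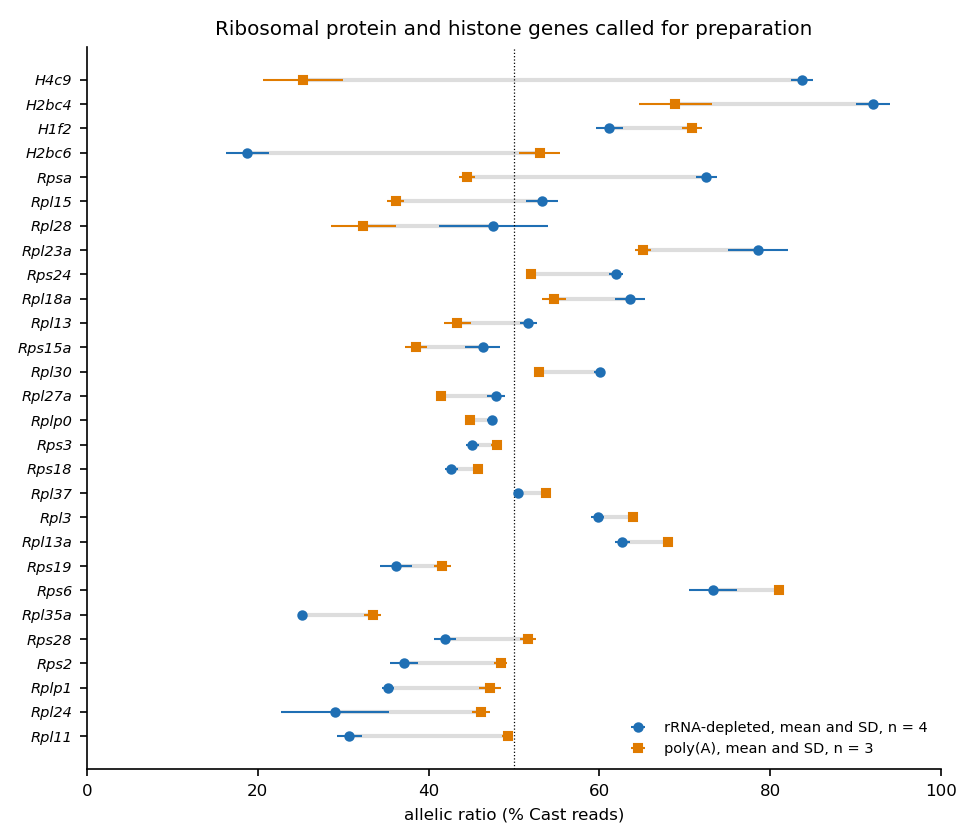
Mean allelic expression ratio with its SD (horizontal axis, percent Cast reads) in the 4 rRNA-depleted clones (blue) and the 3 poly(A) clones (orange) for the 24 cytoplasmic ribosomal protein genes and the 4 histone genes called for preparation. The blue mean lies above the orange one in 13 of the 28 genes and below it in 15, with H4c9, H2bc6 and Rpsa the farthest apart.

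The other lists held between 0 and 6 such genes each, at shares on both sides of the 5.15% of all genes. Of 16 cholesterol synthesis genes 3 were called (18.8%), led by Cyp51, lanosterol demethylase, at 34.0% to 35.1% in the Ch clones and at 48.6% to 50.02% in the poly(A) clones, with 51.6% to 54.6% in astrocytes. Of 31 proteasome subunits 4 were called (12.9%), of 29 detoxification genes 4 (13.8%), of 66 mitochondrial ribosomal protein genes 3 (4.55%), of 71 oxidative phosphorylation genes 2 (2.82%), of 258 zinc finger Zfp genes 5 (1.94%), and of the 23 pseudogenes named -ps 6 (26.1%). Gclc, the catalytic subunit of glutathione synthesis, had 53.0% to 56.8% in the Ch clones and 47.5% to 47.9% in the poly(A) clones. Ndufa12, of complex I, had 44.4% to 49.7% and 29.6% to 33.5%. Gja1, the gap junction protein connexin 43, had 55.7% to 60.4% and 41.5% to 46.5%. Of the collagen, glycolysis and imprinted genes 1 each was called, Col4a2, Aldoc and Mcts2, and none of the neuron, oligodendrocyte lineage, class I, interferon-stimulated, small nucleolar RNA host or study-selected genes was.

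Some genes had both a bias shared by all clones and a difference between the preparations. Of the 451 genes, 236 were also called for strain, which 45.1% of all genes were. In 172 of the 451 that call came with 1 side in every clone, as it did in 35.2% of all genes. Of the 218 strongly biased genes, 27 were called for preparation (12.4%, against 5.15% of all genes), among them Ftl1, Cd36, Lynx1, Hspa8, Matn2, Pon2, Bmp7, Ubb, Clta, Rps6 and Rpl35a. Ftl1 was at 17.2% ± 1.65 (SD, n = 4) in the Ch clones against 4.86% ± 0.860 (SD, n = 3) in the poly(A) clones (difference of log2 ratios 2.04, edgeR adjusted p = 0.00029), with 3.67% to 7.61% in astrocytes.

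Astrocyte libraries, which were poly(A)-enriched too but came from other clones and another cell type, lay closer to the poly(A) NPC clones. Of the 451 genes, 438 had enough reads in all 5 astrocyte clones. Their astrocyte mean was nearer to the poly(A) mean than to the Ch mean in 354 (80.8%), against 60.7% of the 7917 genes that were not called for preparation. In 291 of the 438 (66.4%) all 5 astrocyte clones lay beyond all 4 Ch clones on the side of the poly(A) clones. The Ch clones differ from both other groups in preparation and also in their origin, and these cannot be told apart.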

How the data were processed

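Total RNA was sequenced by the authors as paired-end strand-specific libraries (75 or 100 bp; which library had which length is not given in the sources used here). The authors masked the mouse genome (GRCm38/mm10, per the labels) at SNPs between the strains, aligned with TopHat2 (2.1.0) and Bowtie2, assigned reads to an allele with SNPsplit and used featureCounts (1.5.1) to count reads over genes. The deposited counts give Cast, 129 and all reads for 50600 genes, without normalization. The deposited Cast fraction, given from 10 allele-specific reads, equalled the ratio of the counts and was used only to check them. Of the 50600 genes, 32722 have a symbol and 25959 a position in RefSeq on GRCm38.p6. Of the 10873 genes that reached 20 such reads in all 7 clones, 497 had no position and were left out.

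Ch libraries were summed within each clone, as the methods merged replicates. Counts of both alleles of the 7 clones (14 columns) were fitted with edgeR (4.0.16, quasi-likelihood) with clone as a block and allele, giving both alleles of a clone the same library size. Preparation was tested as the allele by preparation term. P-values were Benjamini-Hochberg adjusted over all genes tested. The script was tested on simulated data. Genes named are, outside imprinted lists, the 8 largest and 8 smallest log2 ratios among called genes with all clones on 1 side and at least 100 reads in every clone, the 4 most deeply read strong genes in each direction, the 6 largest preparation differences in each direction with at least 50 reads in every clone and no overlap, and list members. The same rules for protein-coding genes alone, and other genes named as examples, were chosen after the values were seen. The members and lists were chosen with earlier results of these data known. Alternatives were TMM, DESeq2 (1.42.0), limma (3.58.1, pseudocount 0.5), minima of 1, 10 and 50 reads, all autosomes, single libraries, leaving out each clone, no clone block, a replicate block and a test against a fold of 1.5. R 4.3.3 and Python with scipy were used. Counting errors do not cover PCR duplicates. Some genes that enter the counts are not reported here by name.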

Additional observations from a re-analysis of the deposited data

Results flagged for a closer look

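Among 72 named genes, 6 had 1 clone so far from the other 6 that its gap exceeded Dixon's 95% critical value, and chance flags about 1 in 20 groups. Mt1 was at 17.1% in Ch5, Gm10156 at 99.8% in mG6, Mest at 55.2% and Snrpn at 52.8% in F5, and the imprinted genes Mkrn3 and Peg12 at 34.2% and 99.9% in mG2.

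At 25 named genes the log2 Cast/129 differed between the Ch and the poly(A) clones (edgeR's quasi-likelihood test of the interaction, adjusted p under 0.05). The Ch value minus the poly(A) value was negative at Gatm (-9.50), Nt5c3b (-6.38), Rpsa-ps2 (-3.08), Rpsa-ps4 (-3.06), Prune2 (-2.76), Cap2 (-2.62), H2bc6 (-2.29), Bmp7 (-2.13) and Ubb (-0.69). It was positive at Gm16409 (5.85), Gm12091 (5.56), Cd109 (5.32), Gm6767 (3.92), H4c9 (3.91), Cnih1 (3.88), Aldh1l2 (3.28), Aldoc (2.89), Scg3 (2.51), Mcts2 (2.11), Ftl1 (2.04), Cd36 (1.52), Pon2 (1.44), Lynx1 (1.07), Matn2 (0.93) and Hspa8 (0.42).

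At 4 named genes the poly(A) NPC clones differed from the astrocyte clones by the same kind of test. The NPC value minus the astrocyte value was 1.34 at Matn2, -0.56 at Ubb, -1.98 at Akap12 and -2.65 at Aldh1l2.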

How the results depend on the processing

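The strain comparison gave 3948 calls, and 507 when tested against a fold of 1.5 or 771 without the clone block, which adds the spread of expression between clones to the error. Calls with every clone on the same side were 3083, 504 and 744 in these fits. The 218 strong genes became 399 without a read minimum, 368 over the Ch clones alone, 366 over the poly(A) clones alone, 414 with limits of 40% and 60% and 127 with 30% and 70%. Calls for preparation went from 451 to 977 over all autosomes, 251 with library 2 of each Ch clone and 43 against a fold of 1.5. They were 243 to 397 without 1 clone, and 283, 300, 297, 269 and 243 without Ch5, Ch7, Ch8, mG2 and mG6. Without 1 clone, strain calls were 3496 to 3705, same-side calls 3070 to 3248, strong genes 230 to 241, the mean clone median 49.31% to 49.35%, astrocyte calls 2180 to 3013 and cell type calls 24 to 172. The causes were not tested. DESeq2 called 3574 genes for strain and 423 for preparation, and limma 3939 and 428.

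With a replicate block on the unsummed Ch libraries, 3452 genes were called for strain (3289 shared with the summed fit), 2778 kept 1 side, and 343 were called for preparation. Library numbers did not pair the clones (correlations of library differences -0.0019 to 0.023). The test of library number by allele called 0 genes by edgeR, with 583 at an unadjusted p under 0.05, and no other tool was run on it. Between libraries of a clone the ratio differed with an SD of 6.95 to 8.63 points over genes, against 5.93 to 6.19 from counting, which limits what can be said of genes near the minimum of reads.

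For 58 strain and 17 preparation results of single genes, 1422 of 1514 alternatives kept direction and call, 79 lost the call, 7 gained it and 6 reversed. In log2 Cast/129, Eya3 became 0.012, Mcts2 -0.22 and Plagl1 0.30 over the poly(A) clones alone, Ndn -0.20 over the Ch clones alone, and Zrsr1 -0.024 with library 1 and -0.026 with the replicate block.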
